A study of Sus scrofa with 2 samples.

Results

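The extracellular matrix genes described here are the collagen chains, the laminin chains, the nidogens NID1 and NID2, the perlecan gene HSPG2 and the fibronectin gene FN1, taken by their symbols from the gene list of a single-cell RNA sequencing study of pig antral follicles. Of 22342 genes in the list, 48 met this rule. They were parted by the role of the protein into 19 basement membrane members, 10 fibrillar collagens, 18 other collagens and fibronectin. Somatic cells were flushed from 2 healthy antral follicles over 7 mm in diameter and made into 1 library of the 10x Genomics 3′ kit each, called AF75 and AF76 here. The labels number the follicles 1 and 2, and only the names given to the deposited data link these numbers to AF75 and AF76. Both came from 1 pubertal Landrace and Yorkshire pig aged 210 days, which per the methods of the study had been injected with pregnant mare serum gonadotropin to stimulate its follicles. Thus no unstimulated follicle and no other animal was compared. With 1 library per follicle no test between the follicles can be made, and no p-value is given.

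In the antral follicle the granulosa cells line the wall (mural cells) and surround the oocyte (cumulus cells), and a basement membrane, the follicular basal lamina, parts the mural layer from the vascularized theca. A basement membrane is built on a net of type IV collagen and a net of laminin, which is a trimer of an alpha, a beta and a gamma chain, and nidogen and perlecan join them. Fibrillar collagens such as types I, III and V form the cables of the stroma and the theca, and granulosa cells are known to deposit basal lamina material themselves, also between the cells.

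Barcodes with 2000 to 5000 detected genes and less than 7% mitochondrial UMIs (unique molecular identifiers, each the tag of a captured transcript) were kept, 9362 of 14289 in AF75 and 7843 of 15548 in AF76. They held 111226504 and 108920601 UMIs, and the median cell had 11254.5 and 13902. The libraries shared 18 barcodes among the cells kept. INHA, a granulosa gene, had levels of 19854 and 23176 CPM (counts per 1e+06 UMIs of the same cells) in AF75 and AF76, whereas the 8 immune markers, PTPRC among them at 0.108 and 0.257 CPM, summed to 19.4 and 19.3 CPM. The 7 measured endothelial markers summed to 49.5 and 56.7 CPM, with CDH5 at 0 UMIs in both and VWF at 20 and 167 UMIs. Each level is followed in parentheses by its exact Poisson 95% interval, each share of cells by a Clopper-Pearson interval and each ratio by an exact conditional interval. All of them cover counting error only, and none the spread among replicate follicles. As 3′ tags were counted, a UMI count does not grow with transcript length, but a level can still depend on how well the 3′ end of a gene is annotated.

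Among the 48 members, basement membrane genes held most of the UMIs in both follicles. They held 127767 UMIs in AF75, 96.2% of the UMIs of all 48 members, and 103804 UMIs, 94.8%, in AF76. Fibrillar collagens held 1030 and 1457 UMIs, or 0.775% and 1.33%, and FN1 held 113 and 66 UMIs. Summed, the basement membrane members stood at 1149 CPM (1142–1155) and 953 CPM in the follicles, and the fibrillar members at 9.26 and 13.4 CPM. A minimum of 200 UMIs in 1 follicle was reached by 16 members, 10 of the basement membrane, 1 fibrillar (COL5A2) and 5 other collagens. Of the other 32 members, 21 had UMIs in both follicles, none more than 172 in a follicle, and 5 had UMIs in 1 follicle only. COL2A1, COL6A6, COL20A1, COL26A1, COL28A1 and LAMB4 had 0 UMIs in both. COL4A1, the partner chain of COL4A2, was not found in the gene list by symbol or by identifier and so was not analysed here.

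**Figure D1:**
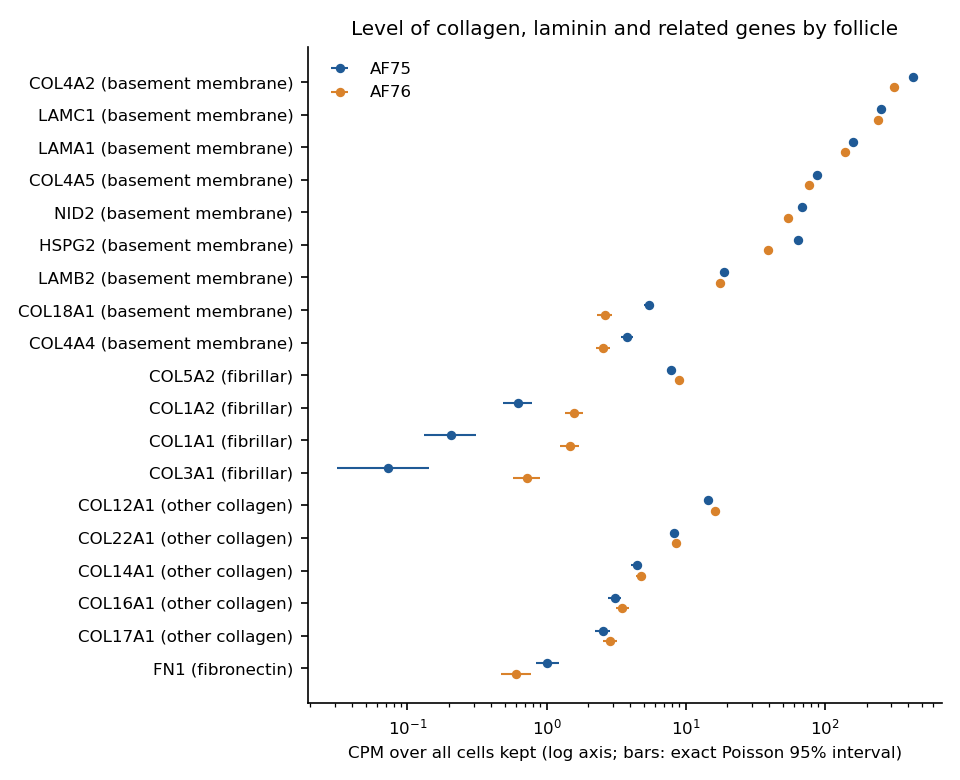
Level of each gene in CPM (log axis) over all cells kept of AF75 (blue) and AF76 (orange), with exact Poisson 95% intervals, for the members over the minimum named in the text and for COL1A1, COL1A2, COL3A1 and FN1. The basement membrane genes reach from 429 CPM for COL4A2 in AF75 down to 2.56 CPM for COL4A4 in AF76, and COL1A1 and COL3A1 have the widest gaps between the follicles.

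The leading chain was COL4A2, a chain of the type IV collagen net (ENSSSCG00000009545, Sscrofa11.1 chromosome 11, 76996885–77161617). Its level was 429 CPM (425–433) in AF75, against 317 CPM (314–321) in AF76, and a UMI of it was seen in 96.4% (95.97–96.7) and 94.2% (93.7–94.7) of cells. COL4A5, another type IV chain (chromosome X, 88958837–89183306), was at 88.8 and 76.8 CPM and in 56.6% and 55.2% of cells. COL4A4, which is known from the glomerular basement membrane, was far lower, at 3.79 and 2.56 CPM. The type IV chains in the list together held 43.7% of all member UMIs in AF75 and 39.4% in AF76.

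Among the laminins, LAMC1 and LAMA1 were the most abundant gamma and alpha chains. LAMC1 (chromosome 9, 124283668–124405967) reached 255 CPM (252–258) in AF75, against 243 CPM (239.7–246) in AF76, and LAMA1 (chromosome 6, 100332843–100468457) stood at 159 and 141 CPM. LAMB2 was the only beta chain over the minimum, at 18.9 and 17.6 CPM. Summed by type, alpha chains stood at 161 and 143 CPM and beta chains at 19.98 and 18.7 CPM, so the beta chains were lower in both libraries on the scale of UMIs. LAMB1 (111 and 108 UMIs), LAMA5 (151 and 98) and LAMA3 (85 and 107) were under the minimum.

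NID2, a nidogen (chromosome 1, 181699098–181773084), reached 68.4 CPM (66.9–70.0) in AF75, against 54.1 CPM (52.8–55.5) in AF76. Its relative NID1 had 53 and 11 UMIs. HSPG2, the core protein of the heparan sulfate proteoglycan perlecan (chromosome 6, 79849691–79958283), was at 64.2 CPM (62.8–65.8) and 38.9 CPM (37.8–40.1). COL18A1, whose C-terminal fragment is endostatin, was at 5.42 CPM (5.00–5.87) and 2.62 CPM (2.32–2.94). The 7 leading genes, all of the basement membrane, held 93.5% and 92.2% of member UMIs.

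COL5A2, a chain of type V collagen that takes part in fibril assembly (chromosome 15, 93611856–93981131), was the leading fibrillar gene, with 7.83 CPM (7.32–8.37) in AF75, against 8.98 CPM (8.43–9.56) in AF76. It held 84.6% and 67.1% of the fibrillar UMIs. Of the other collagens, COL12A1, a fibril-associated collagen (chromosome 1, 90744409–90875127), was at 14.4 and 16.3 CPM. COL22A1, known from tissue junctions, was at 8.27 and 8.58 CPM. COL14A1 and COL16A1, both fibril-associated, were at 4.45 and 4.78 CPM and at 3.09 and 3.52 CPM. COL17A1, a transmembrane collagen of hemidesmosomes, was at 2.53 and 2.87 CPM.

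Barcodes of cell types that should lack these genes give a rough level of free or mixed RNA. In AF76 25 deposited barcodes carried leukocyte markers, at a median of 4143 UMIs, and 46 had at least 20% of their UMIs from HBB, a red blood cell transcript, at a median of 3602. COL4A2 was seen in 16% and 6.52% of these barcodes, LAMC1 in 20% and 8.70%, and NID2 in 8% and 0% (0 of 46), against 94.2%, 88.0% and 24.6% of the deeper cells kept. In the HBB barcodes COL4A2 was at 80.0 CPM (29.4–174), below its level in the cells kept. COL5A2 was seen in 8% of the leukocyte barcodes and COL12A1 in 4%, against 10.4% and 8.53% of the cells kept, at 10.6 CPM (1.28–38.3) each. These intervals held the levels of the cells kept, as did that of COL4A2, at 239 CPM (174–319), in the leukocyte barcodes. Over all cells of AF76, the low levels of COL5A2 and COL12A1 were thus not separated from this background, nor was COL4A2 from the leukocyte barcodes. With 2 UMIs each of COL5A2 and COL12A1 in these barcodes, the intervals were too wide to separate levels this low. The 45 COL4A2 UMIs lay in only 16% of them. In AF75 4 barcodes carried leukocyte markers, with COL4A2 at 43.8 CPM (16.1–95.4) from 6 UMIs, below its level in the cells kept.

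The sequence upstream of LAMC1, NID2 and COL12A1 is shown as examples of genes whose levels differed between the cell groups described next. In cluster 2 of AF76 LAMC1 and NID2 were low and COL12A1 high. The windows hold the 250 bases before the RefSeq gene start on Sscrofa11.1, read 5′ to 3′ on the strand of the gene, chr9:124283418-124283667 (plus) for LAMC1, chr1:181773085-181773334 (minus) for NID2 and chr1:90744159-90744408 (plus) for COL12A1. Capitals mark matches, on either strand, to a GC box (GGGCGG).
LAMC1: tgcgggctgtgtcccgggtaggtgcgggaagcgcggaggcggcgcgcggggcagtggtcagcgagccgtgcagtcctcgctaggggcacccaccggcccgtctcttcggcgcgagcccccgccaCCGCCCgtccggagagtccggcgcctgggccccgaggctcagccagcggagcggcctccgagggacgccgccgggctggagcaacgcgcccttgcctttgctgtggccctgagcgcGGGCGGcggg
NID2: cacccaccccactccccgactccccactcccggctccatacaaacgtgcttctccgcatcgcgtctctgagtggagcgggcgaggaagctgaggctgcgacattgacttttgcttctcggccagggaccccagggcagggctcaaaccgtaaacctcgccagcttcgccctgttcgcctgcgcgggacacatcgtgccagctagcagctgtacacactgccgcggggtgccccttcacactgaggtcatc
COL12A1: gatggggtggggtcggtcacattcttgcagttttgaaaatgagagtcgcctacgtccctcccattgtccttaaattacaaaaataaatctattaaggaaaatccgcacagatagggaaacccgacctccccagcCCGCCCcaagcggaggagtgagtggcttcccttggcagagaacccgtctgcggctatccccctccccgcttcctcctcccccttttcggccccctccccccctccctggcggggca
The LAMC1 window was 78% G and C and had 2 GC boxes. NID2, at 64%, had none, and COL12A1, at 58%, had 1 GC box. Of the same windows of 20641 protein-coding genes, 44.5% held a GC box. The CCAAT box (CCAAT), the TATA box (TATAAA), the AP-1 site (TGANTCA) and the TEAD site (GGAATG), held by 32.0%, 10.4%, 5.46% and 10.4% of the windows, were in none of the 3. These matches describe letters in a window only.

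Between the follicles, basement membrane genes were lower in AF76 and fibrillar genes higher. The ratio of AF76 to AF75 was 0.830 (0.823–0.836) for the summed basement membrane members and 1.44 (1.33–1.57) for the summed fibrillar members. It was 0.760 (0.750–0.769) for type IV collagen, 0.787 (0.761–0.815) for the nidogens, and 0.888 (0.869–0.907) for laminin alpha chains. Of the 10 basement membrane genes over the minimum, 9 were lower in AF76 with an interval that excluded 1. COL5A2, at 1.15 (1.05–1.26), and COL12A1, at 1.13 (1.06–1.21), were higher, and the intervals of the other 4 collagens included 1. These ratios have no replicate check.

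Past 1.5-fold, no member of the 16 was higher in AF76, where 1.8% of all 10049 genes tested were, and 2 were lower, where 3.85% of all genes were. The 2 were COL18A1, at a ratio of 0.483 (0.418–0.557), and HSPG2, at 0.606 (0.583–0.630). COL4A4 followed at 0.675 (0.578–0.787), COL4A2 at 0.739 (0.729–0.749) and NID2 at 0.791 (0.765–0.819). LAMC1, at 0.951 (0.935–0.967), and LAMB2, at 0.932 (0.875–0.991), were close to equal in both libraries. The median log2 ratio was -0.09 over the 16 members and -0.0019 over all genes tested. FN1, under the minimum, had 1.02 CPM in AF75 against 0.606 in AF76, a ratio of 0.596 (0.433–0.815).

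The higher fibrillar sum of AF76 was not shared evenly by its genes. Type I and III collagen (COL1A1, COL1A2 and COL3A1), the bulk collagens of stroma, summed to 100 UMIs in AF75 and 412 in AF76, a ratio of 4.21 (3.37–5.29). COL1A1 had 23 and 161 UMIs, a ratio of 7.15 (4.60–11.6). COL1A2 had 69 and 172 UMIs, a ratio of 2.55 (1.91–3.42), and COL3A1 had 8 and 79 UMIs, a ratio of 10.1 (4.88–24.2). These UMIs were thinly spread, as 333 cells of AF76 (4.25%) had any, of which 284 had 1 UMI, 15 had 3 or more and the highest had 9. In AF75 84 cells (0.897%) had any, and 72 of them had 1. Barcodes outside the limits held more of it for their depth, 33 UMIs or 2.33 CPM in AF75 and 358 UMIs or 19.4 CPM in AF76, where the highest barcode had 18. Of the 10 theca and stromal markers, DCN had 0.171 CPM in AF75 against 1.34 in AF76, and LUM 0.063 and 0.771 CPM. PDGFRB was at 3.03 and 4.17 CPM, CYP17A1 at 1.45 and 1.59 CPM, and PDGFRA had 6 and 11 UMIs. The whole list summed to 317 and 508 CPM. In AF76, 88 of 146 DCN UMIs and 63 of 84 LUM UMIs lay in cluster 2, described below, against 74 of the 412 type I and III UMIs. HBB of red blood cells was at 2.47 and 45.6 CPM. The part of such cells or of their free RNA in the type I and III counts was not tested.

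**Figure D2:**
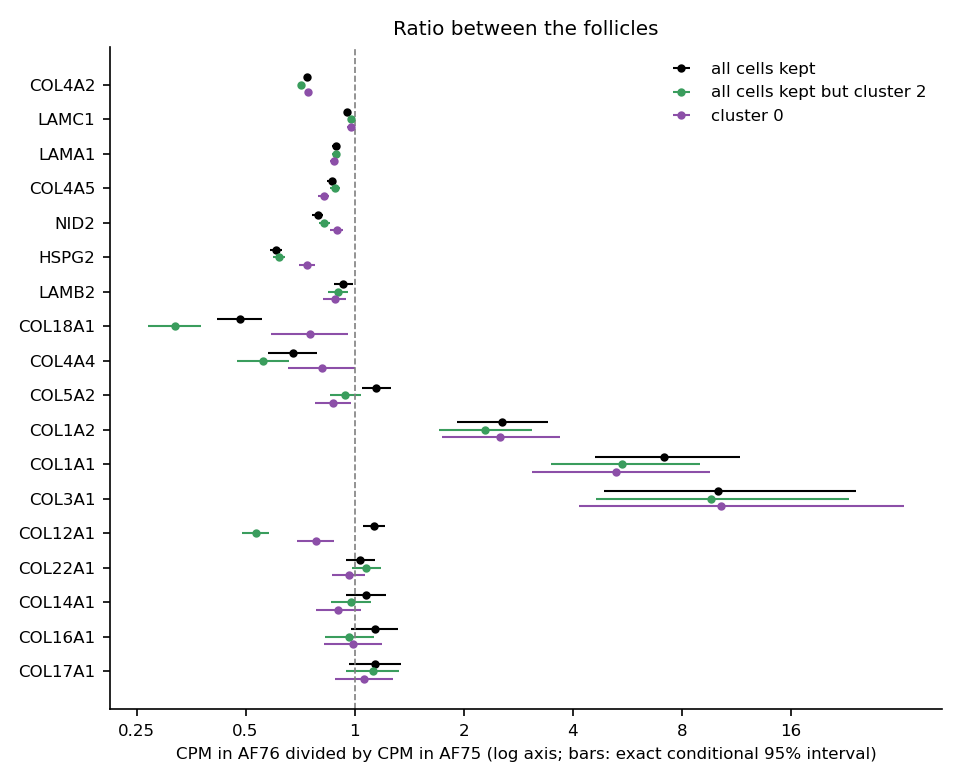
CPM in AF76 divided by CPM in AF75 (log axis) over all cells kept (black), over all cells kept but cluster 2 (green) and within cluster 0 (purple), with exact conditional 95% intervals and a dashed line at 1. COL1A1, COL1A2 and COL3A1 lie above 2 in all 3 sets of cells, and COL12A1 moves from 1.13 to 0.534 when cluster 2 is left out.

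The mix of cells differed between the follicles. The cells were clustered with both follicles integrated and with all 48 members kept out of the variable genes, which gave 6 clusters, numbered from 0 by size and described by their leading genes. Cluster 0, led by TGFB3, ENPP2 and IL33, held 6329 cells of AF75 (67.6%) and 5847 of AF76 (74.6%). Cluster 1, led by ARPP21, ALPK2 and SHAS2 and high in the cumulus genes VCAN and TNFAIP6, held 2381 (25.4%) and 998 cells (12.7%). Cluster 2, led by DEFB1, CCL26, CEMIP and CCDC80, held 1 cell of AF75 and 682 of AF76 (8.70%), so this cluster and the AF76 library cannot be told apart. Cluster 3, led by TOP2A and other genes of dividing cells, held 455 and 121 cells, cluster 4, led by ALDH1A2, 174 and 171, and cluster 5, led by CXCL10 and interferon response genes, 22 and 24.

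Within cluster 0 the basement membrane sum was still lower in AF76, at 1094 against 934 CPM, a ratio of 0.853 (0.845–0.862), and the fibrillar sum was at 9.31 and 10.7 CPM, a ratio of 1.15 (1.04–1.27). COL4A2 was at 392 and 292 CPM there, a ratio of 0.744 (0.731–0.757), and HSPG2 at 49.5 and 36.6 CPM, a ratio of 0.739 (0.704–0.775). Of 14 members over the minimum in cluster 0, none passed 1.5-fold, where 0.36% of all genes were that much higher and 1.46% that much lower. COL5A2 turned to 0.871 (0.777–0.976) within cluster 0 and COL12A1 to 0.780 (0.693–0.878), so neither kept within this cluster the direction it had over all cells. Without cluster 2, COL12A1 had a ratio of 0.534 (0.490–0.581) over all other cells, COL18A1 of 0.319 (0.269–0.377) and COL5A2 of 0.942 (0.854–1.04). Within cluster 3 none of 6 members passed 1.5-fold (background 2.35% higher and 6.19% lower), and within cluster 4 none of 3 (0.823% and 0.772%). Type I and III collagen kept a ratio of 3.85 (2.91–5.16) in cluster 0, at 0.827 and 3.19 CPM.

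Cluster 1 held more basement membrane transcript than cluster 0 in both follicles. In AF75 the sum was at 1323 CPM in cluster 1 against 1094 CPM in cluster 0, and in AF76 at 1060.0 against 934 CPM. Of 16 members tested in AF75, 4 were at least 2 times higher in cluster 1, where 3.95% of all genes were, and none was as much lower, where 4.44% were. COL18A1 was at 14.3 against 2.00 CPM, a ratio of 7.14 (5.90–8.69). COL12A1 was at 33.7 against 8.003 CPM, a ratio of 4.21 (3.79–4.68), COL4A4 at 6.69 against 2.45 CPM, a ratio of 2.73 (2.21–3.37), and HSPG2 at 103 against 49.5 CPM, a ratio of 2.08 (1.98–2.18). COL4A2, at 539.8 against 392 CPM, and NID2, at 93.7 against 62.7 CPM, were higher by less, with ratios of 1.38 (1.35–1.40) and 1.49 (1.42–1.57). LAMC1 and LAMA1 were about level, at ratios of 0.979 and 1.02. NID1 had 37 of its 53 UMIs of AF75 in cluster 1, a ratio of 8.02 (4.17–16.5).

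In AF76, with the follicles integrated, fewer members passed. COL12A1 alone of 15 members passed 2-fold, at 15.8 against 6.24 CPM, a ratio of 2.53 (2.16–2.96), where 0.917% of all genes were that much higher, and no member was that much lower, where 0.678% were. COL18A1 was at 2.93 against 1.504 CPM, a ratio of 1.95 (1.34–2.77), HSPG2 at 56.1 against 36.6 CPM, a ratio of 1.54 (1.42–1.66), and COL4A2 at 371 against 292 CPM, a ratio of 1.27 (1.23–1.31). This order in AF76 rests on the integration of the follicles, as without it 914 of the 998 cells fell into the largest cluster and 21 made up its second cluster, where the log2 ratio was -0.094 for HSPG2 and -0.28 for NID2, against 0.62 and 0.24 with it. In those 21 cells it was 2.34 for both COL18A1 and COL12A1, against 0.96 and 1.34 with integration, while the AF75 values without it were 2.92 and 2.14, so a smaller gap for COL12A1 in AF76 holds with integration only. Set between the follicles within cluster 1, 3 of 10 members were at least 1.5 times lower in AF76, where 7.78% of all genes were, and none was as much higher, where 6.04% were. They were COL18A1, at 0.205 (0.146–0.282), COL12A1, at 0.469 (0.404–0.543), and HSPG2, at 0.546 (0.505–0.591). The 4 measured cumulus markers, led by VCAN and TNFAIP6, moved with them, with a sum in cluster 1 of 8618 CPM for AF75 against 1458 CPM for AF76. The mural granulosa markers summed to 1248 and 4826 CPM in it and HBB stood at 1.81 and 149.97 CPM, so cluster 1 differed between the follicles in these markers too. Their part in the ratios was not tested.

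Cluster 2 of AF76 had the most different set of matrix genes. Of 16 members tested against cluster 0 of AF76, 7 were at least 2 times higher, where 21.4% of all genes were, and 4 at least 2 times lower, where 9.02% were. The median log2 ratio was 0.37 over all genes tested and 0.55 over the members, so a ratio near 1 in this comparison lay below that of most genes. COL12A1 was at 201 CPM in cluster 2 against 6.24 CPM in cluster 0, a ratio of 32.2 (28.9–35.9). COL18A1 was at 21.7 against 1.504 CPM, a ratio of 14.4 (11.0–18.8), and COL5A2 at 43.3 against 7.12 CPM, a ratio of 6.08 (5.17–7.13). COL4A4, at 12.0 CPM, COL16A1, at 14.8 CPM, and COL14A1, at 14.0 CPM, had ratios of 6.01 (4.38–8.15), 5.05 (3.83–6.60) and 3.13 (2.38–4.06). COL4A2 was at 592 against 292 CPM, a ratio of 2.03 (1.95–2.11), the highest level of any member in a cluster of at least 100 cells.

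NID2 and LAMC1 were lower in the same cells. NID2 was at 4.33 CPM (21 UMIs) in cluster 2 against 55.9 CPM in cluster 0, a ratio of 0.0774 (0.0479–0.118). LAMC1 was at 106 against 251 CPM, a ratio of 0.421 (0.385–0.460), and COL22A1 at 1.86 (9 UMIs) against 9.05 CPM, a ratio of 0.205 (0.0934–0.391). COL4A5 was at 42.1 against 78.1 CPM, a ratio of 0.539 (0.467–0.620), HSPG2 at 22.9 against 36.6 CPM, a ratio of 0.626 (0.513–0.757), and LAMA1 at 147 against 136 CPM, a ratio of 1.08 (1.00–1.17). LAMB2 was at 30.5 against 17.0 CPM, a ratio of 1.79 (1.503–2.12). Thus the type IV chains COL4A2, COL4A4 and COL4A5 did not move together, nor did the laminin chains.

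Several genes under the minimum were at a higher level in cluster 2 than in cluster 0, and are named after their values were seen. LAMB1 had 48 of its 108 UMIs of AF76 there, at 9.90 against 0.533 CPM in cluster 0, a ratio of 18.6 (12.1–28.5). COL11A1 had 20 UMIs in cluster 2 and 17 in cluster 0, a ratio of 20.5 (10.2–41.6). COL10A1, with no UMI in AF75, had 14 of its 15 UMIs in cluster 2. COL1A1 had 43 UMIs there, at 8.87 against 1.13 CPM, a ratio of 7.88 (5.36–11.4), FN1 had 13 UMIs, a ratio of 5.80 (2.84–11.11), and LAMA5 had 18 UMIs, a ratio of 5.05 (2.81–8.66). NID1 and LAMA3 had 0 UMIs in cluster 2, which allows up to 0.619 CPM. COL7A1, at a ratio of 0.627 (0.168–1.65) on 4 UMIs, and COL6A3, with 0 UMIs in cluster 2 and 18 in cluster 0, were not higher either. No share of all genes with as few UMIs is given beside these ratios, so they are a description only.

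Cluster 2 was shallow, its median cell holding 6438.5 UMIs where that of all AF76 cells held 13902. The 8 measured granulosa markers summed to 6363 CPM there against 33630 CPM in cluster 0. INHA was at 2242 and 24522 CPM and SERPINE2 at 1509 and 6994 CPM. CYP11A1, the enzyme that starts steroid synthesis, was at 1929 and 1690.1 CPM, and FSHR was higher in cluster 2, at 37.7 CPM (183 UMIs) against 0.367 CPM. The contractile genes ACTA2 and TAGLN were at 60.6 and 200.4 CPM, against 0.817 and 7.17 CPM in cluster 0, but the 5 measured smooth muscle and pericyte markers together were at 546 and 588 CPM. Of the other cell types, the 8 immune markers summed to 84.6 CPM in cluster 2 and 16.5 CPM in cluster 0, with none at 0. The 7 measured endothelial markers summed to 32.6 and 61.5 CPM, with CDH5 at 0, but VWF alone was higher in cluster 2 than in cluster 0, at 22.3 CPM (108 UMIs) against 0.474 CPM. Among the theca and stromal markers, DCN stood at 18.1 and 0.604 CPM. LUM, at 12.99 and 0.130 CPM, and PDGFRB, at 40.4 and 2.32 CPM, were also higher in cluster 2, whereas CYP17A1 was lower, at 0.412 and 1.91 CPM. The whole list of 10 theca and stromal markers summed to 119 and 559 CPM. Genes of the list not named here held nearly all of the cluster 0 sum, so the sum does not describe DCN or LUM. Of 25 AF76 cells that met a marker rule for an immune or stromal cell, 23 lay in cluster 2. Without them COL4A2 was at 603 CPM and the ratios to cluster 0 were as large, at 32.6 for COL12A1 and 6.19 for COL5A2, against 32.2 and 6.08 with them. The rule took only 23 of the 682 cells of cluster 2, and the part of mixed RNA or of cells that did not meet it was not tested.

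**Figure D3:**
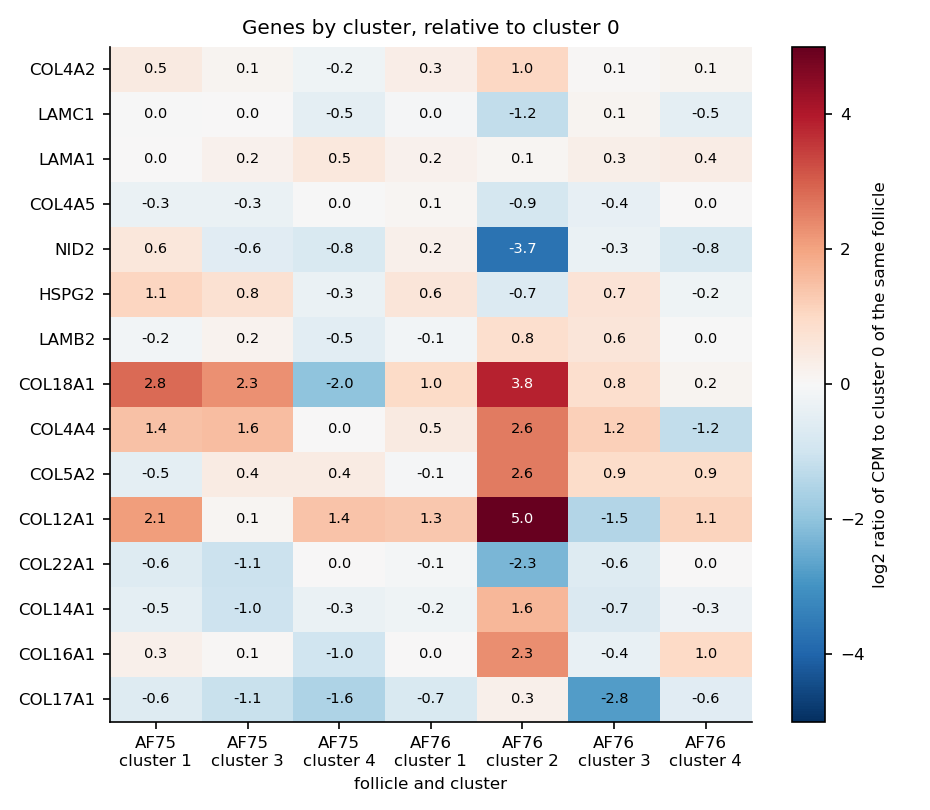
Log2 ratio of CPM to cluster 0 of the same follicle (colour and printed value) for the members over the minimum named in the text (rows) in the clusters of at least 100 cells (columns). Cluster 2 of AF76 holds both the highest value, 5.01 for COL12A1, and the lowest shown, -3.69 for NID2, and COL18A1 is high in clusters 1 and 3 of AF75.

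In the dividing cells of cluster 3 of AF75 2 of 16 members were at least 2 times higher (background 5.37%), COL18A1 and COL4A4, and 4 at least 2 times lower (4.14%), among them COL22A1, COL17A1 and COL14A1. In cluster 3 of AF76 none of 14 was higher (3.99%) and 3 were lower (4.11%), among them COL12A1 and COL17A1, where COL17A1 rests on 1 UMI. HSPG2 was at 83.4 and 58.8 CPM in cluster 3. In cluster 4 COL12A1 was the only member at least 2 times higher than in cluster 0, at 21.3 CPM in AF75 (of 14 members, background 2.48%) and 13.4 CPM in AF76 (of 14, 2.09%). In cluster 4 of AF75 3 members were at least 2 times lower (2.88%), among them COL16A1 and COL17A1 on 3 and 2 UMIs, and in AF76 none was (2.97%). LAMA1 was at 222 and 178 CPM in cluster 4, above its 155 and 136 CPM in cluster 0.

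Cells of the same cluster also differed from each other, and NID2 and COL12A1 stood out among the genes named here. For this each cell was thinned to 5000 UMIs, so that 19 shallower AF75 cells and 105 AF76 cells dropped out. The Fano factor (variance over mean, which is 1 for counts that vary by sampling alone) in cluster 0 was 2.21 for NID2 and 2.17 for COL12A1 in AF75, and 2.52 and 2.00 in AF76. It was 1.09 and 1.05 for HSPG2, 1.21 and 1.19 for COL4A5, 1.31 and 1.37 for LAMC1 and 1.36 and 1.31 for COL4A2. NID2 and HSPG2 show the difference at a like mean. In cluster 0 of AF75 NID2 had 0.307 UMIs per cell, with 18.0% of cells having any and 3.31% having 3 or more. HSPG2 had 0.244 UMIs per cell, with 20.9% of cells having any but only 0.443% having 3 or more.

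The top 10% of cluster 0 cells held 73.8% of the NID2 UMIs in AF75, against 55.5% of those of HSPG2 and 47.1% of those of COL4A5. The pattern was as large in cluster 1, with Fano factors of 2.45 and 3.13 for NID2 in AF75 and AF76. Without thinning, the highest cell had 25 NID2 UMIs in AF75 and 51 in AF76, against a highest count of 29 in each follicle for COL4A2, which was several times more abundant. In cluster 2, COL12A1 was itself uneven, with a Fano factor of 2.68, at 41.9% of thinned cells with a UMI and 13.2% with 3 or more. Across cells of a cluster, Pearson's r between any pair of the 7 leading members lay between -0.0508 and 0.0949, over 996 to 6317 cells that share a library and a thinned depth, and such weak values in sparse counts are given as a description only.

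**Figure D4:**
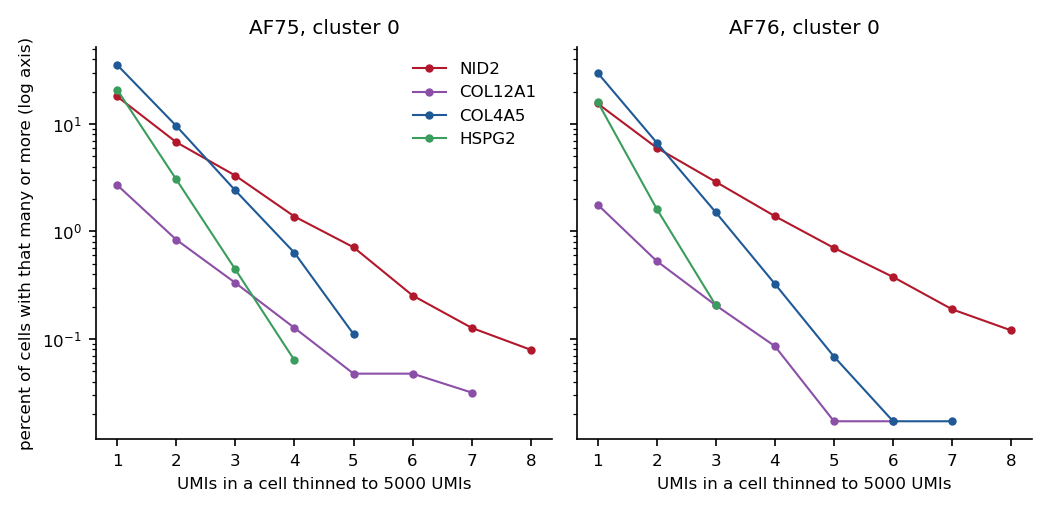
Percent of cluster 0 cells (log axis) with at least the number of UMIs on the horizontal axis, each cell thinned to 5000 UMIs, in AF75 (left) and AF76 (right). The line of NID2 falls more slowly than those of COL4A5 and HSPG2, so that NID2, seen in fewer AF75 cells than HSPG2 (18.0% against 20.9%), has more cells with 3 or more UMIs (3.31% against 0.443%).

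Type I and III collagen was also uneven over the clusters of AF76. Its sum was at 3.19 CPM (2.82–3.59) in cluster 0, 3.13 CPM (2.29–4.18) in cluster 1, 15.3 CPM (12.0–19.2) in cluster 2 and 7.63 CPM (4.44–12.2) in cluster 3, from 269, 46, 74 and 17 UMIs. The like levels of clusters 0 and 1 were 3.85 and 2.60 times those of AF75. In the AF75 clusters of at least 100 cells the sum was between 0.544 CPM in cluster 3 and 1.20 CPM in cluster 1, on at most 62 UMIs in a cluster, and the intervals of these clusters overlapped.

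**Figure D5:**
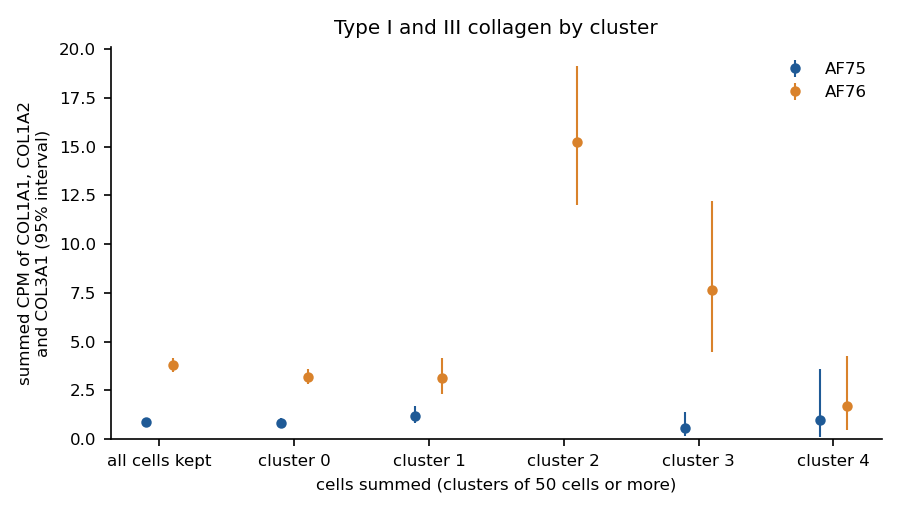
Summed CPM of COL1A1, COL1A2 and COL3A1 in all cells kept and in each cluster of at least 50 cells, for AF75 (blue) and AF76 (orange), with exact Poisson 95% intervals. AF76 is highest in cluster 2, at 15.3 CPM, and lies above AF75 in clusters 0, 1 and 3, while the intervals overlap in cluster 4.

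The genes that make, join and bind these proteins were counted from lists of the pathway, with the share of all genes called in the same comparison beside each count. Of 16 tested genes of collagen synthesis and secretion, none passed 1.5-fold between the follicles (1.8% and 3.85% of all genes), with a median log2 ratio of -0.05. PPIB, a prolyl isomerase, was at 1238 and 1264 CPM, the prolyl hydroxylase gene P4HA1 at 419.7 and 413 CPM, the collagen chaperone gene SERPINH1 at 391 and 354 CPM and the prolyl 3-hydroxylase gene P3H1 at 379.6 and 313 CPM. TMEM38B, at 1.19, and CRTAP, at 1.05, had the highest ratios of AF76 to AF75, and COLGALT1, at 0.765, and PLOD1, at 0.782, the lowest. None passed 2-fold in cluster 1 of AF75 (3.95% and 4.44% of all genes) or AF76 (0.917% and 0.678%), where P4HA1 had ratios to cluster 0 of 1.56 in AF75 and 1.26 in AF76. In cluster 2 none was higher (21.4% of all genes) and 4 were lower (9.02%), P3H1, P3H2, PLOD2 and TMEM38B, while SERPINH1 was at 389.6 against 358 CPM, a ratio of 1.09 (1.04–1.14).

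Of 10 tested genes of crosslinking and procollagen processing, none was 1.5 times higher in AF76 (1.8% of all genes) and 4 were lower (3.85%), LOXL4, PXDN, BMP1 and ADAMTS3. LOXL4, a lysyl oxidase relative, had 6.10 CPM in AF75 against 1.44 in AF76, a ratio of 0.236 (0.198–0.282). BMP1, the procollagen C-proteinase, was at 331 and 177 CPM, a ratio of 0.536 (0.527–0.545). LOX, which crosslinks collagen, was at 513 and 580.3 CPM. In cluster 1 of AF75 LOXL4 and PXDN, the peroxidase that crosslinks type IV collagen, were 7.40 and 2.25 times as high as in cluster 0 (3.95% of all genes), and TLL2 and TGM2 were lower (4.44%), at 0.373 and 0.449. PXDN alone of 8 genes passed in cluster 1 of AF76 (0.917% of all genes), at 2.32 (1.83–2.92). In cluster 2, 3 of 8 were higher (21.4% of all genes) and 3 lower (9.02%). PXDN was at 35.1 against 3.12 CPM, a ratio of 11.3 (9.22–13.7), TGM2 at 123 against 23.4 CPM and SPARC at 72.6 against 32.2 CPM, whereas LOX was at 78.4 against 658 CPM, a ratio of 0.119 (0.107–0.132), and PCOLCE2 and TLL2 were also lower.

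Of 16 tested receptors, none was 1.5 times higher in AF76 (1.8% of all genes) and 2 were lower (3.85%), ITGA5, a fibronectin receptor chain, at 183 and 101 CPM, and the syndecan gene SDC1, at 1114 and 629 CPM. SDC4 was the highest, at 2543 and 2721 CPM, before ITGB1, the common beta chain of these integrins, at 1644 and 2040.1 CPM. In cluster 1, 1 of 15 was at least 2 times higher in AF75 (3.95% of all genes) and none in AF76 (0.917%), and the laminin receptor chain ITGA6 had ratios to cluster 0 of 2.04 (1.86–2.23) in AF75 and 1.44 (1.27–1.63) in AF76. In cluster 2, 4 of 15 were at least 2 times higher, ITGA6, ITGB5, ITGB8 and BCAM, a share near the 21.4% of all genes, and 6 at least 2 times lower (9.02% of all genes), ITGA2, ITGA5, DDR2, CD44, SDC1 and SDC4. BCAM, a receptor of laminin alpha 5, was at 112 against 42.0 CPM, a ratio of 2.66 (2.43–2.91), and ITGA2, a collagen and laminin receptor chain, at 11.3 against 176 CPM, a ratio of 0.0644 (0.0485–0.0839).

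Among 5 tested genes of other basement membrane proteins, NPNT (nephronectin) was at least 1.5 times higher in AF76 (1.8% of all genes), at 9.08 and 19.6 CPM, and none was as much lower (3.85%). In cluster 2, 2 of 4 were higher (21.4% of all genes) and 1 lower (9.02%). The lower gene was FREM2, at a ratio of 0.183 (0.0667–0.400) on 6 UMIs. NPNT was at 229.9 against 9.59 CPM, a ratio of 24.0 (21.9–26.3). FBLN1 (fibulin 1) was at 213 against 16.4 CPM there, a ratio of 13 (12.0–14.1), and 3.35 times as high in cluster 1 as in cluster 0 of AF75, the only 1 of 5 to pass there (3.95% of all genes). AGRN (agrin) was at 48.7 and 40.9 CPM over all cells of AF75 and AF76.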

How the data were processed

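Somatic cells of 2 pig antral follicles were each measured as 1 library. The authors deposited a matrix of counts (UMIs per gene and barcode, whole numbers, not normalized) for each, made with CellRanger 6.0.2 against Sscrofa11.1, and no replicate library. Barcodes with 2000 to 5000 genes and under 7% mitochondrial UMIs were kept here, with doublets kept in. Members were taken by symbol from the deposited gene list. The members, the gene lists and the comparisons were chosen with earlier results of these data known.

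UMIs were summed per gene over the cells of a follicle or cluster and divided by the summed UMIs of those cells (CPM). Intervals of 95% were computed with scipy 1.17.1 in Python 3.11.15. With 1 library per follicle no test was made, and genes were counted past 1.5-fold between follicles (of those with at least 200 UMIs in 1 follicle) or past 2-fold between clusters of a follicle (of those with at least 200 UMIs in both clusters together). Cells were clustered with Seurat 5.3.0 in R 4.3.3 (2000 variable genes less the members, 40 components, resolution 0.2). Only the ratio between the follicles and its interval were tested on simulated data, drawn as Poisson counts that hold counting error alone.

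Every member over the minimum is named with its values, as are those at 0, except 1 that is not reported here, though counts and sums include it. In each pathway list the genes to name were up to 4 with the most UMIs and up to 2 with the largest ratio each way, and not all of these are named. Members under the minimum (COL1A1, COL1A2, COL3A1, LAMA3, LAMA5, LAMB1, NID1, COL6A3, COL7A1, COL10A1, COL11A1) and other pathway genes were named after their values were seen. The alternatives were the removal of likely doublets (6.9% by Scrublet in scanpy 1.11.5), the mean of per-cell CPM, another library size, thinning to 5000 UMIs, other limits on barcodes, other minimums and clustering without integration. Sequences and positions are those of RefSeq on Sscrofa11.1, and all 48 members had a position.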

Additional observations from a re-analysis of the deposited data

Results flagged for a closer look

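COL4A5 stood on opposite sides of 1 in the follicles when cluster 1 was set against cluster 0, the AF75 ratio being 0.786 and that of AF76 1.07. Each rests on 1 library, and the difference was not tested.

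Collagen genes that the deposited list gives by an Ensembl identifier only were not taken by the symbol rule, and were named from the reference of the same assembly. COL4A6, a type IV chain, had 385 UMIs in AF75 and 234 in AF76 (3.46 and 2.15 CPM), and COL4A3, another, had 122 and 69. COL6A1 had 10 and 21 UMIs, COL9A3 had 21 and 5, and COL25A1 had 13 and 12.

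Barcodes outside the limits on genes and mitochondrial UMIs held 33 UMIs of COL1A1, COL1A2 and COL3A1 in AF75 and 358 in AF76.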

How the results depend on the processing

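No paired analysis was possible because each follicle is 1 library and the values come from no test. The summed ratios of basement membrane and fibrillar members and that of FN1 between the follicles kept their direction in the alternatives run, which were not run for the other sums. The log2 ratio of AF76 to AF75 of the basement membrane members (-0.27) was -0.28 with the mean of per-cell CPM and with cells thinned to 5000 UMIs, -0.25 without mitochondrial and ribosomal protein genes in the library size, -0.30 with 500 to 6000 genes per barcode and -0.32 with all deposited barcodes. That of the fibrillar members (0.53) was 0.77, 0.74, 0.66 and 0.77 with the per-cell mean, thinning, 500 to 6000 genes and all barcodes, and, in alternatives chosen after seeing the data, 1.62 without COL5A2 and 0.25 without cluster 2. Within cluster 0 it was 0.37 when thinned (0.20 as reported), and that of the basement membrane members was -0.21 without integration (-0.23 as reported). FN1 lay between -0.33 and -0.78 in all 7 alternatives.

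The count of members at least 1.5 times higher in AF76 (0) was 1 with the per-cell mean, 2 with 500 to 6000 genes or all barcodes, 3 with a minimum of 50 UMIs and 6 with 1 UMI in each follicle. The count of those lower (2) was 1 when thinned, 6 with a minimum of 50 UMIs and 8 with 1 UMI in each follicle. The numbers of members tested and the shares of all genes called under these settings are not given. These counts thus show only a dependence on the setting, and are no result about the members. In AF76 the log2 ratio of cluster 1 to cluster 0 was 0.12 without integration for basement membrane members (0.18 as reported), and for fibrillar members -0.35 when thinned and 0.86 without integration (-0.06 as reported). HSPG2 and NID2 turned to -0.094 and -0.28 and COL18A1 and COL12A1 moved to 2.34 each without integration, where the second cluster held 21 cells of AF76. Removal of likely doublets and a limit of 10% mitochondrial UMIs moved no summed value beyond its interval. The counting intervals do not cover the spread between follicles, which 1 library each cannot show.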
